A study of Mus musculus with 15 samples.

Results

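Trim43 and Tdpoz are a pair of gene families of the mouse 2-cell embryo, and 8 of their genes are described here: Trim43a, Trim43b and Trim43c on chromosome 9, and Tdpoz1, Tdpoz2, Tdpoz3, Tdpoz4 and Tdpoz5 on chromosome 3. They were chosen by name, as 8 of the 57663 gene symbols in the 2 deposited tables, and each of the 8 has a row in both tables. The data are 15 RNA-Seq libraries: 2 control and 2 Zscan4 overexpression libraries of J1 cells, and 5 control and 6 Zscan4 RNAi libraries of 2-cell embryos. J1 cells are mouse embryonic stem cells (ESCs) of an established line, here kept without feeders, and all 4 of its libraries carry the same passage label. Controls of both kinds are labelled wild type. How Zscan4 was overexpressed, the RNAi reagent, the mouse strain, the hours after fertilisation and the number of embryos in a library are not stated in the labels. Nothing in the labels says that libraries of a group came from separate cultures or separate embryo pools, so a p-value here measures only how far these libraries spread, which may be a technical spread.

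In the 2-cell mouse embryo the zygotic genome is transcribed for the first time in earnest, while RNA stored in the oocyte is being removed. A set of genes is transcribed at this stage and then shut off, and a small fraction of cultured ESCs passes through a state in which the same genes are on. Zscan4, a cluster of zinc finger genes with a SCAN domain, is the best known marker of that state. Trim43 genes code for tripartite motif proteins, with a RING finger of the kind found in ubiquitin ligases, and the human TRIM43 gene is a known target of the 2-cell-type activator DUX4. Tdpoz genes code for proteins with a TRAF (MATH) domain and a POZ (BTB) domain, the layout of Spop, which brings substrates to the CUL3 ubiquitin ligase.

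The genes of each family are copies spread along a stretch of the same chromosome. In mm10 (gene models of GENCODE vM21) Trim43a lies at chr9:88580891-88588819 on the plus strand, Trim43c at chr9:88839164-88848190 on the plus strand and Trim43b at chr9:89084624-89092835 on the minus strand, each with 7 exon blocks. Tdpoz2 lies at chr3:93651542-93652686 and Tdpoz1 at chr3:93669333-93676310, both on the minus strand. Tdpoz4 (chr3:93796398-93797510) and Tdpoz3 (chr3:93826020-93827117) follow on the plus strand, and Tdpoz5 (chr3:93960292-93961314) on the minus strand. Tdpoz1 has 2 exon blocks and the other 4 Tdpoz genes have 1.

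How alike the copies are sets how far a read can be assigned to 1 of them. The coding sequences of the Trim43 genes were 96.85% to 98.42% identical over aligned bases, and their first 60 coding bases were the same. The 60-base window, aligned without a gap, with the most positions that vary among the Trim43 genes spans coding bases 128 to 187. It is shown with these 6 positions in capitals:
Trim43a: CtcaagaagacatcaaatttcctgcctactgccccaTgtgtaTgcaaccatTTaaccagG
Trim43b: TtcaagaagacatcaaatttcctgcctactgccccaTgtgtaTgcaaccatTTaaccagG
Trim43c: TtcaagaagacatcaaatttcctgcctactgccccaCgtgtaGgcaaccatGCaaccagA
Trim43b differs from Trim43a at 1 of these positions and Trim43c at all 6. The window thus marks Trim43c and hardly separates Trim43a from Trim43b, which differ at 21 aligned coding bases in all. The Tdpoz genes are further apart, at 77.33% to 88.04% identity. Their first 60 coding bases show this, with capitals where a gene differs from Tdpoz1:
Tdpoz1: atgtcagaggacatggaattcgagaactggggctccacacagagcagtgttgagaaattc
Tdpoz2: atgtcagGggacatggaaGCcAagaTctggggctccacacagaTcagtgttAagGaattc
Tdpoz3: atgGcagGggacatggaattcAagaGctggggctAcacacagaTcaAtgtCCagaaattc
Tdpoz4: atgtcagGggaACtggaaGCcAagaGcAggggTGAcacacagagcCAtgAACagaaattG
Tdpoz5: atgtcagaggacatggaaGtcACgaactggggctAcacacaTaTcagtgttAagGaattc
Tdpoz4 has 17 differences from Tdpoz1 in this stretch, Tdpoz3 has 9, and Tdpoz2 and Tdpoz5 have 8 each.

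Of the 50-base runs in the transcripts of a gene, 42.1% (Trim43c), 45.8% (Trim43a) and 47.7% (Trim43b) also occur in another gene. For Tdpoz genes the share was 41.2% (Tdpoz4), 44.4% (Tdpoz1), 48.3% (Tdpoz2), 66.2% (Tdpoz3) and 100% (Tdpoz5). Tdpoz5 is the same as the predicted gene Gm10697 (Tdpoz7 in RefSeq) over all 1023 bases, so a read of one cannot be told from a read of the other. How such reads were counted is not stated. Values of single copies are therefore uncertain, those of Tdpoz5 most of all, and sums over each family are given beside them. For Trim43 genes, 42.1% (Trim43c) to 46.8% (Trim43b) of the runs occur in another described gene, so the sum takes in most of the sharing. For Tdpoz genes this was only 0.547% (Tdpoz2) to 3.59% (Tdpoz5). Most of their shared runs thus occur only in genes outside the Tdpoz sum, and that sum stays uncertain too.

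Values below are normalised reads, which are reads divided by the authors' size factor of the library. Depth was 21820093 to 26555027 assigned reads in an ESC library and 695524 to 1432566 in an embryo library, where 1 read equals 0.687 to 1.39 normalised reads. Zscan4 RNA checks the labels: its summed level was 152 and 212 in control ESCs and 20005 and 19449 with overexpression. In embryos it was 345 to 1064 in controls and 13.9 to 383 with RNAi, so the groups overlapped. RNAi libraries 3 (379) and 5 (383) were above control 5 (345). ESC markers were present in all ESC libraries, at a summed level of 85428 to 104307, and oocyte-stored transcripts in all embryo libraries. Of 9 cumulus and granulosa markers, 4 (Amh, Inha, Inhba and Has2) were at 0 in every embryo library and the sum was 2.52 to 9.61.

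In control ESCs the 8 genes were near silent, and with Zscan4 overexpression Trim43a rose 141-fold. Trim43a was at 1.90 and 3.74 normalised reads in the controls and at 385 and 414 with overexpression. The means were 2.82 ± 1.30 and 399 ± 20.5 (SD, n = 2 each), and both overexpression libraries were far above both controls. The control mean rests on 6 reads, and the ratio of means was 107 without control 1 and 210 without control 2. On the log2(value + 1) scale the difference was 6.75 (SE 0.40, adjusted p = 0.0112 by limma with Benjamini-Hochberg adjustment over all 20888 genes tested), and 22 of those genes had a larger change. Trim43b was at 0.952 and 0 in the controls, which is 1 read in all, and at 55.6 and 77.5 with overexpression. Its log2 difference was 5.58 (SE 0.54, adjusted p = 0.0136). The ratio of summed reads was 138, with a 95% exact binomial interval of 24.3 to 5488 that covers counting error only.

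Trim43c stayed low. It was at 0.952 and 0.936 in the controls and at 18.2 and 5.96 with overexpression, 2 reads against 25, a ratio of 13.7 (interval 3.41 to 119). Its log2 difference of 2.57 did not pass (adjusted p = 0.0572). Trim43c shares 768 exon bases with an antisense gene, 9330159M07Rik, and without a stated strand setting their reads cannot be told apart. The antisense gene was at 48.6 and 50.6 in control ESCs and at 74.8 and 62.0 with overexpression (adjusted p = 0.320).

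Tdpoz genes gave few reads in ESCs, even with overexpression. Tdpoz3 had no read in the controls and 10 in the overexpression libraries (5.47 and 4.77 normalised reads). Set against a floor of 3 reads over the control group, that is 3.65-fold higher, with no counting error taken on the 10 reads. The limma test called Tdpoz3 higher (log2 difference 2.61, SE 0.46, adjusted p = 0.0285). Tdpoz4 was at 0 and 1.87 in the controls and at 9.12 and 17.9 with overexpression, 2 reads against 25, a ratio of 13.7 (interval 3.41 to 119), and was not called (adjusted p = 0.0518). Tdpoz5 had 0 reads against 3 (adjusted p = 0.121), Tdpoz1 had 0 against 2, and Tdpoz2 had no read in any ESC library. Tdpoz1 and Tdpoz2 were too low to be tested.

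Of the 8 genes, 6 passed the filter on low values (a value of at least 1 in 2 libraries) and 3 of them, Trim43a, Trim43b and Tdpoz3, were called higher. Among all genes tested, 11.7% were called higher, and 34.2% had both overexpression libraries above both controls, as all 6 had. Only Trim43a would have passed the filter on its control libraries, so the other 5 entered the test through the overexpression libraries, and the count is a description. Both edgeR and DESeq2 called Trim43a and Trim43b, where 15.6% and 14.8% of the genes they tested were called higher. These were the only 2 of the 8 genes that edgeR tested. Tdpoz3 got no adjusted p from either tool, so its call was not tried by them.

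**Figure D1:**
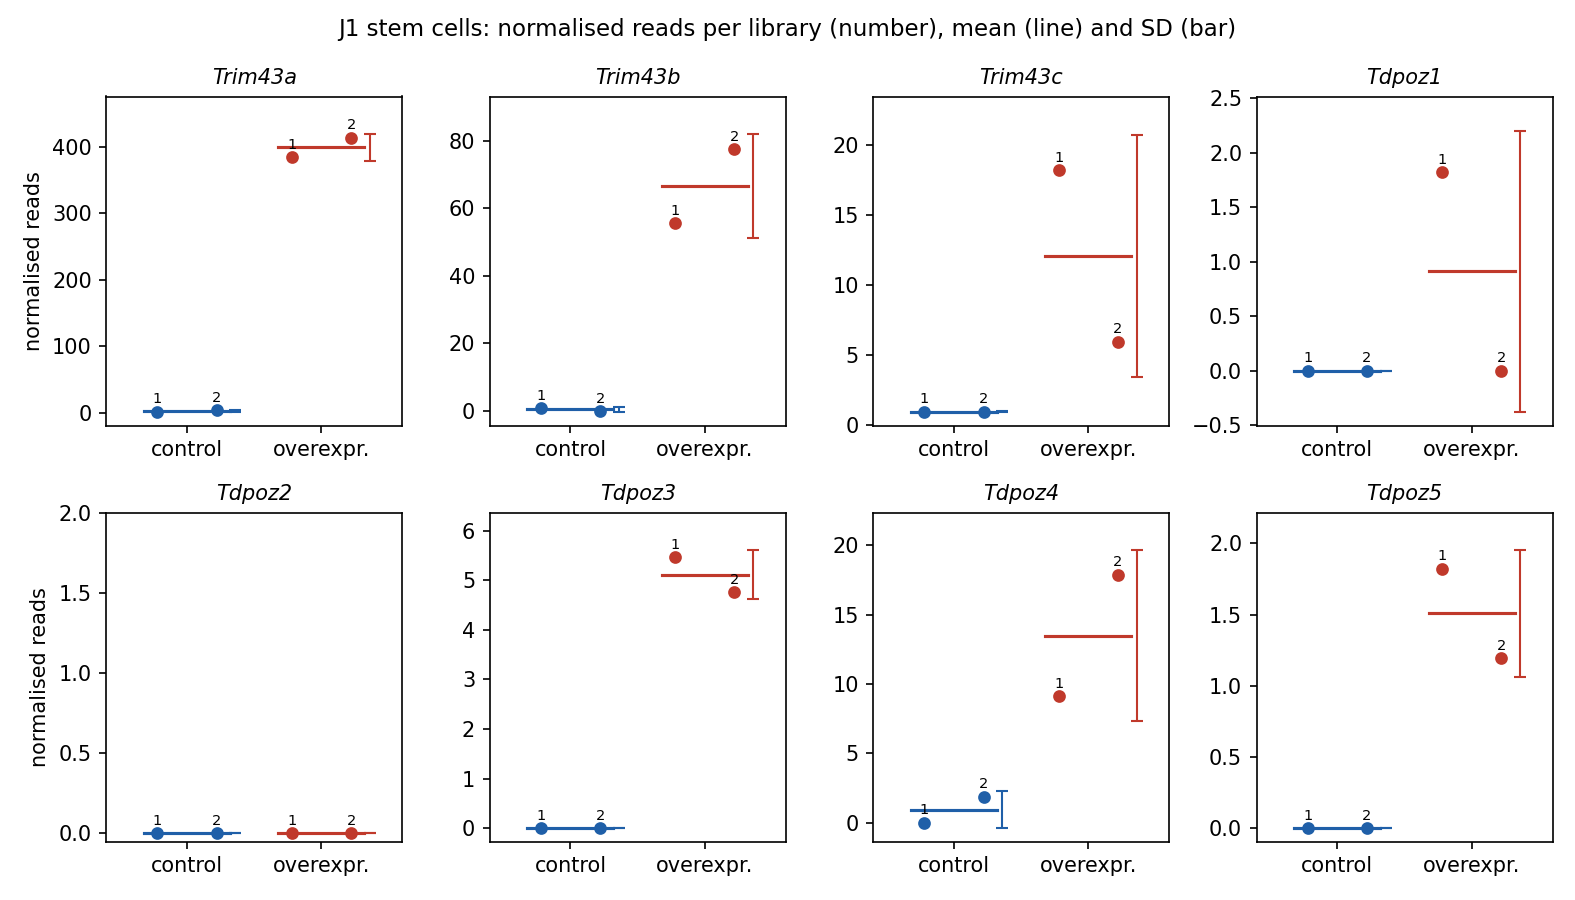
Normalised reads (y axis, linear, a separate scale for each gene) of the 8 genes in the 2 control (blue) and 2 overexpression (red) ESC libraries; numbers name the libraries, lines are means and bars SDs. Trim43a reaches 385 and 414 with overexpression, Trim43b 55.6 and 77.5, while no Tdpoz gene exceeds 17.9 and Tdpoz2 has no read.

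Summed over the family, Trim43 was at 3.81 and 4.68 normalised reads in control ESCs and at 459 and 497 with overexpression. That is 9 reads against 920, and the means differed about 113-fold. The Tdpoz sum was 0 and 1.87 in the controls and 18.2 and 23.8 with overexpression, 2 reads against 40, a ratio of 21.9 (interval 5.68 to 187). Most of the reads of both families in overexpressing ESCs were thus Trim43 reads. Zscan4 itself was about 108-fold higher in the same libraries. With 9 control reads of Trim43, its ratio was not compared with that of Zscan4. Other genes moved too, as seen in the sum of 7 trophectoderm markers, led by the keratins Krt8 and Krt18. This sum was 2837 to 2933 in the controls and 30916 to 46800 with overexpression. Of the 7 markers, 4 were called higher (beside 11.7% of all genes tested) and none was at 0. Their part in the result was not tested, and with bulk RNA a larger share of cells that express a gene and more of its RNA per cell cannot be told apart.

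The ESC calls rest on how the spread is estimated. On the log2 scale the SD of a gene had a median of 0.09 in the controls and 0.41 with overexpression, and when only the overexpression libraries set the spread, none of the 6 tested genes was called (the lowest adjusted p was 0.166), nor was any other gene. Leaving out either control library also left 0 calls (adjusted p = 0.252 for each of Trim43a, Trim43b and Tdpoz3), while leaving out either overexpression library gave 5. In these 3 fits without a call, 4935 genes, 3617 genes and 3646 genes of the 20888 had an unadjusted p under 0.05.

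In 2-cell embryos 7 of the 8 genes fell with Zscan4 RNAi and none rose; of the 16417 genes tested, 12.0% were called lower and 6.13% higher. With edgeR the count was 5, Trim43a, Trim43b, Tdpoz2, Tdpoz4 and Tdpoz5 (13.9% of all genes called lower), and with DESeq2 it was 4, the same less Trim43b (12.1%). The median log2 difference of the 8 genes was -2.42, and that of all genes tested was -0.03. All 8 passed the filter on the control libraries alone (a value of at least 1 in 5 libraries), and 7 of them, all but Tdpoz2, also on the RNAi libraries alone. For 3 genes, Tdpoz1, Tdpoz4 and Tdpoz5, every RNAi library was below every control; 4.28% of all genes tested had groups that did not overlap in this direction.

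Trim43a was at 822, 513, 436, 404 and 215 normalised reads in controls 1 to 5, and at 18.6 to 220 with RNAi (median 84.0). Only RNAi library 1 (220) was above a control, and only above control 5 (215). The means were 478 ± 221 (SD, n = 5) and 97.2 ± 84.8 (SD, n = 6), 4.92-fold lower, and the log2 difference was -2.77 (SE 0.56, adjusted p = 0.00419 by limma). Trim43a kept its call in each of the 21 alternatives tried, with adjusted p from 0.00116 to 0.0155.

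Trim43b was at 657, 620, 609, 421 and 154 in the controls and at 0 to 160 with RNAi (median 83.3). RNAi library 6 had no read of it. The means were 492.5 ± 210.0 and 80.9 ± 81.0, 6.09-fold lower, and 37 of the 16417 genes tested had a lower log2 difference than its -4.07 (SE 0.999, adjusted p = 0.0102). Control 5 lies among the RNAi libraries for this gene, and the DESeq2 test did not call it (adjusted p = 0.0788).

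Trim43c was at 120, 136, 115, 99.5 and 56.7 in the controls and at 2.60 to 123 with RNAi (median 23.5). The highest RNAi value, 123 in library 1, was above 4 of the 5 controls, and the other RNAi libraries were below all controls. The log2 difference was -2.44 (SE 0.69, adjusted p = 0.0208), and the call was lost with edgeR (adjusted p = 0.133), with DESeq2 (0.104) and without control 2 (0.0543). The ratio of means was 2.84-fold, and 5.28-fold without RNAi library 1. Its antisense partner 9330159M07Rik was at 44.97 to 113 in controls and at 0 to 73.5 with RNAi (log2 difference -2.58, adjusted p = 0.0218).

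Among the Tdpoz genes, Tdpoz4 and Tdpoz5 had the smallest adjusted p. Tdpoz4 was at 98.1, 87.0, 45.9, 83.1 and 108 in the controls and at 5.21 to 43.3 with RNAi (median 18.5). It was 3.74-fold lower (84.3 ± 23.5 against 22.5 ± 16.0), with a log2 difference of -2.14 (SE 0.48, adjusted p = 0.00681). Tdpoz5, which cannot be told from Gm10697, was at 89.7, 139, 79.3, 122 and 62.6 in the controls and at 2.60 to 51.7 with RNAi (median 24.7). The ratio of means was 4.09-fold, the log2 difference -2.39 (SE 0.55, adjusted p = 0.00718), and both genes were called in all 21 alternatives. The twin Gm10697 was at 33.2 to 109 in controls and at 0.868 to 50.8 with RNAi (adjusted p = 0.0145).

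Tdpoz1 and Tdpoz2 lie next to each other at one end of the cluster. Tdpoz1 was at 73.0, 131, 86.3, 94.8 and 66.5 in the controls and at 0.868 to 65.8 with RNAi (median 24.2). The groups did not overlap, though RNAi library 5 (65.8) came close to control 5 (66.5), and the log2 difference was -2.36 (SE 0.69, adjusted p = 0.0235). That call was lost in 6 of 21 alternatives, among them edgeR (0.0888) and DESeq2 (0.0633) and leaving out control 2, 3 or 4 or RNAi library 3 (0.0503 to 0.0629). Tdpoz2 was the lowest of the family, at 11.7, 61.2, 36.2, 10.54 and 15.6 in the controls and at 0 to 15.6 with RNAi (median 1.68). It was 6.67-fold lower in the means, with a log2 difference of -2.89 (SE 0.74, adjusted p = 0.0122), and RNAi library 2 (15.6) was above 2 controls. Without that library the means differed 15.4-fold, and the gene stayed called (log2 difference -3.39, adjusted p = 0.00249).

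Tdpoz3 did not pass. It was at 86.4, 48.0, 50.1, 66.7 and 63.5 in the controls and at 0 to 126 with RNAi (median 22.2). RNAi library 2 (126) was above all controls and RNAi library 1 (85.1) above 4 of them, while library 3 had no read. The means were 62.9 ± 15.4 and 42.9 ± 51.4, and the log2 difference of -1.998 (SE 0.90) had an adjusted p of 0.126. Without RNAi library 2 it was -2.60 (adjusted p = 0.0309), and without RNAi library 3 it was -1.20 (0.271). The count tests gave smaller differences, -0.44 with edgeR (adjusted p = 0.690) and -0.55 with DESeq2 (0.757). Whether the response of Tdpoz3 differs from that of the other Tdpoz genes was not tested.

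**Figure D2:**
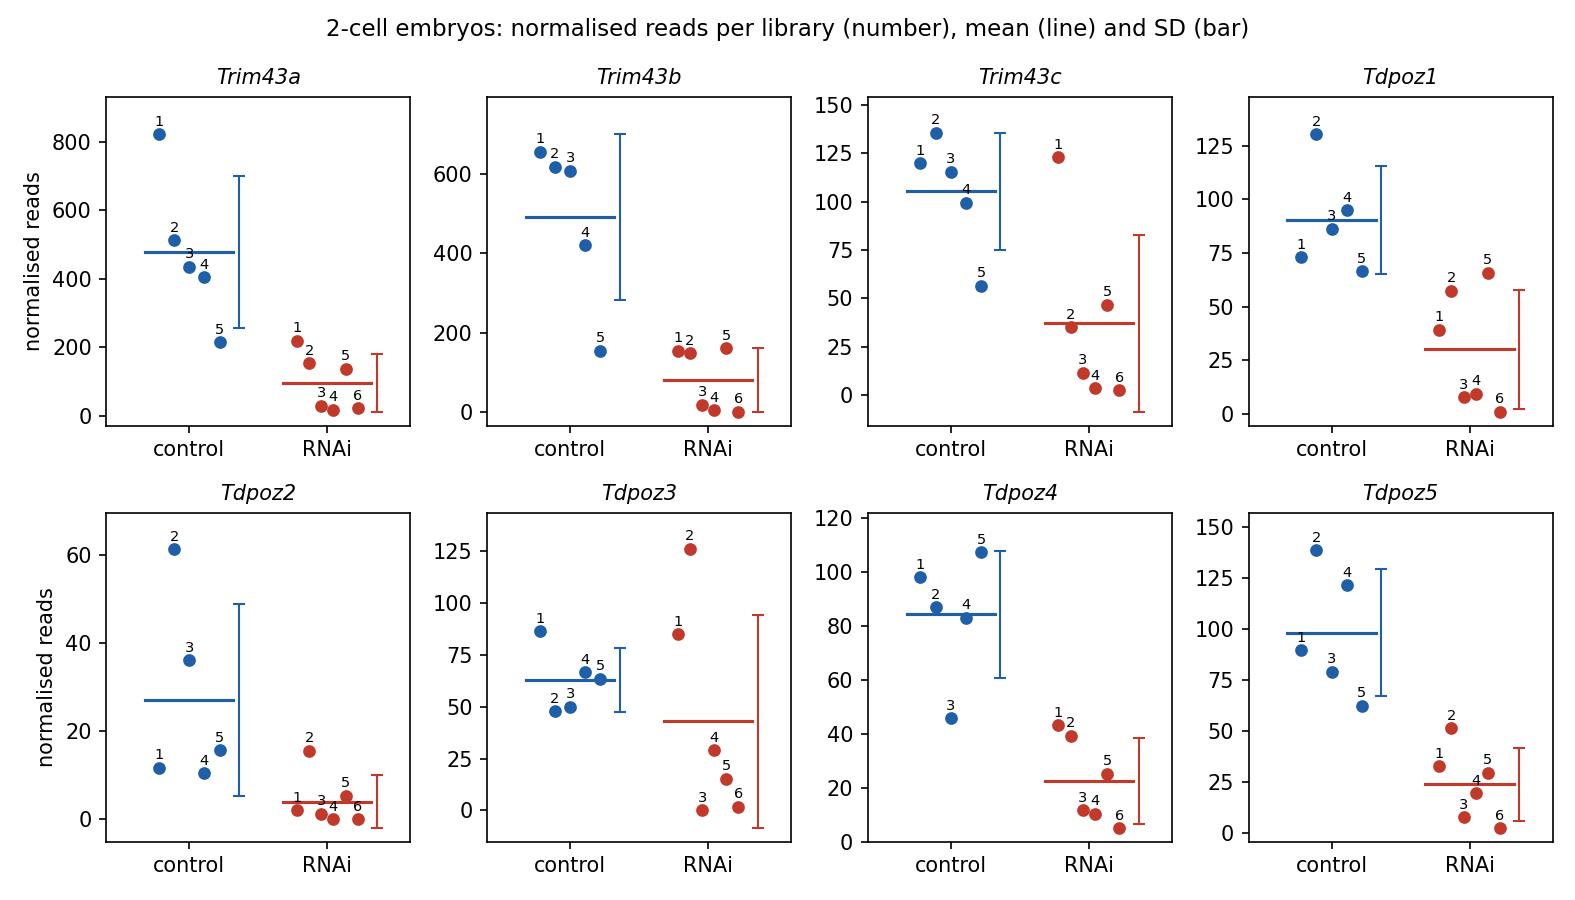
Normalised reads (y axis, linear, a separate scale for each gene) of the 8 genes in the 5 control (blue) and 6 RNAi (red) embryo libraries; numbers name the libraries, lines are means and bars SDs. RNAi libraries 3, 4 and 6 are low for every gene but Tdpoz3, where library 4 reaches 29.0; libraries 1, 2 and 5 all lie below every control for Tdpoz1, Tdpoz4 and Tdpoz5, and at least 1 of them is above a control for each of the other 5 genes.

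The spread within the RNAi group was wide, and both families followed it. The Trim43 sum was 1599, 1268, 1161, 925 and 426 in controls 1 to 5. With RNAi it was 497, 337 and 345 in libraries 1, 2 and 5, and 59.98, 25.5 and 26.04 in libraries 3, 4 and 6. The ratio of group means was 5.00-fold (1076 ± 437 against 215 ± 204), and the groups overlapped through control 5 and RNAi library 1.

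The Tdpoz sum was 359, 465, 298, 377 and 316 in the controls. With RNAi it was 203, 290.3 and 142 in libraries 1, 2 and 5, and 28.7, 68.5 and 10.4 in libraries 3, 4 and 6. The groups did not overlap, and the ratio of means was 2.94-fold (363 ± 65.6 against 124 ± 109). The controls spanned 1.56-fold for Tdpoz and 3.75-fold for Trim43, and the RNAi libraries 27.9-fold and 19.5-fold.

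The level of Zscan4 RNA did not follow the same order within the RNAi group. RNAi library 3, with the second lowest Tdpoz sum, had one of the higher Zscan4 sums (379), and RNAi library 4 had the lowest (13.9). The summed level of 10 oocyte-stored transcripts, among them the growth factor genes Gdf9 and Bmp15 and the zona pellucida genes, is given beside these values. It was 2078 to 4077 in controls, 5889, 4387 and 3830 in RNAi libraries 1, 2 and 5, and 7938, 10464 and 9060 in libraries 3, 4 and 6. Of these 10 markers, 3 were called higher with RNAi (beside 6.13% of all genes tested), none lower, and none was at 0. Their part in the fall of Trim43 and Tdpoz was not tested; in bulk embryo RNA, fewer cells that transcribe a gene and less of its RNA per cell cannot be told apart.

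**Figure D3:**
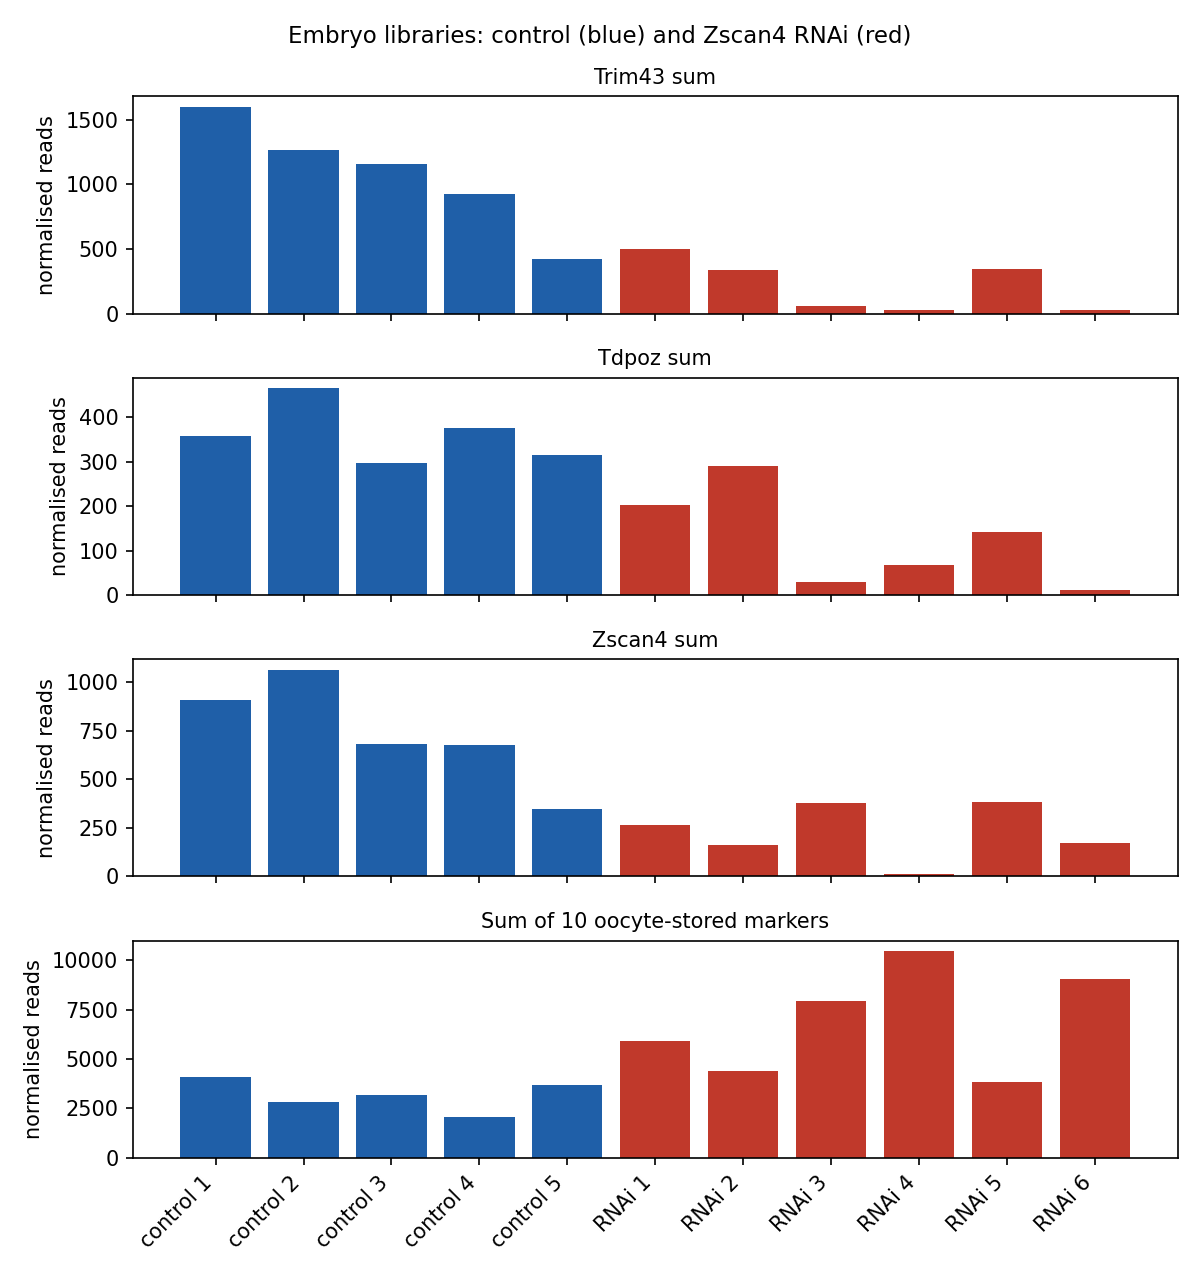
Summed normalised reads (y axes, linear from 0) of the Trim43 genes, the Tdpoz genes, the Zscan4 genes and 10 oocyte-stored marker genes in each of the 5 control (blue) and 6 RNAi (red) embryo libraries. RNAi libraries 3, 4 and 6 have the lowest family sums (at most 59.98 for Trim43 and 68.5 for Tdpoz) and the highest marker sums (at least 7938), while their Zscan4 sums range from 13.9 to 379.

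Levels of different genes were compared per kilobase of exon. In control embryos the order was Trim43a (241 ± 112 normalised reads per kb), Trim43b (218 ± 92.8), Tdpoz5 (96.2 ± 30.5), Tdpoz4 (75.8 ± 21.1), Tdpoz3 (57.3 ± 14.1), Trim43c (53.0 ± 15.2), Tdpoz1 (38.3 ± 10.7) and Tdpoz2 (23.6 ± 19.0; SD, n = 5 each). Of the neighbours in this order, only Trim43b and Tdpoz5 differed by more than the larger of their SDs. The order depends on the gene models. Those of Tdpoz3, Tdpoz4 and Tdpoz5 start at the first coding base and span 1098, 1113 and 1023 exon bases. That of Tdpoz1 has 2353 exon bases for 1095 coding bases. Before division by length, the control means were 98.4 (Tdpoz5), 90.2 (Tdpoz1) and 84.3 (Tdpoz4). Reads of Tdpoz5 also cannot be told from those of Gm10697. In overexpressing ESCs the levels per kb ran from Trim43a (201 ± 10.3; SD, n = 2) through Trim43b (29.4 ± 6.84), Tdpoz4 (12.1 ± 5.57), Trim43c (6.08 ± 4.36) and Tdpoz3 (4.66 ± 0.45) to Tdpoz5 (1.47 ± 0.44) and Tdpoz1 (0.387 ± 0.548). As each table has its own scaling, these levels are set side by side and not compared between cells and embryos.

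Shares within a family do not depend on the scaling of a library. Trim43a gave 83.6% of the 920 Trim43 reads in overexpressing ESCs (exact 95% interval 81.0% to 85.9%), with 83.9% and 83.2% in the 2 libraries. In control embryos it gave 44.9% of 5686 reads (43.6% to 46.2%), with 37.5% to 51.4% in the 5 libraries, so the overexpressing ESC libraries did not overlap with the control embryos. The intervals cover counting error only, and that of the control embryos is narrower than the spread between their libraries. Trim43b gave 13.7% in overexpressing ESCs and 45.4% in control embryos, and Trim43c 2.72% and 9.73%. No test was made of these differences; cell source, library batch and overexpression cannot be told apart here, and reads shared between the copies could be divided differently in single libraries.

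With RNAi the Trim43a share was 44.9% of 1616 pooled reads but 39.9% to 90% in single libraries, and the highest, 27 of 30 reads in library 6, was above both overexpressing ESC libraries. The pooled share is carried by libraries 1, 2 and 5, which gave most of the reads. The Trim43c share was 17.9% (9.73% in controls), with 10% to 24.7% in single libraries. In the Tdpoz family, Tdpoz3 gave 17% of 1918 reads in control embryos (10.3% to 24.1% by library) and 35.8% of 899 with RNAi (0% to 43.5%). Tdpoz5 went from 27.1% to 18.9% and Tdpoz2 from 7.72% to 3.23%, with ranges by library that overlapped. The ESC Tdpoz reads were too few for shares of this kind: of 40 with overexpression, Tdpoz4 gave 25 and Tdpoz3 gave 10.

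**Figure D4:**
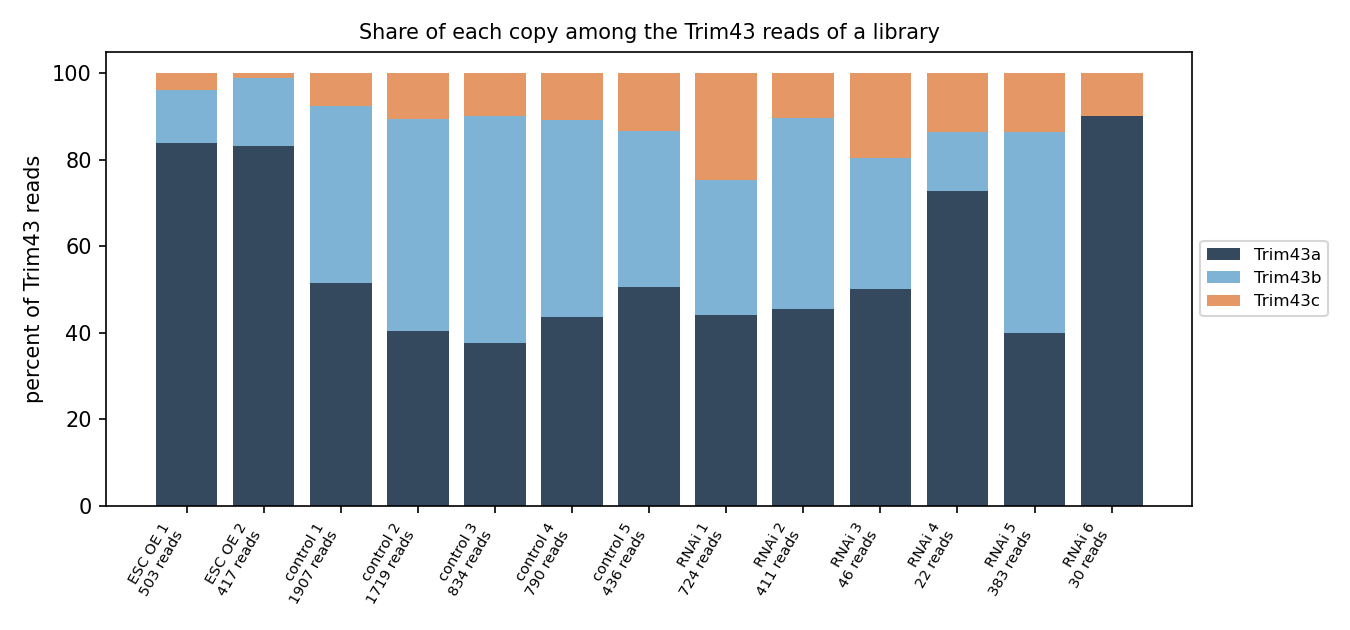
Percent of the Trim43 reads of a library (y axis, linear from 0) that were assigned to Trim43a, Trim43b and Trim43c, in the 2 overexpressing ESC libraries, 5 control and 6 RNAi embryo libraries; the number of Trim43 reads stands under each bar. Trim43a makes up over 80% in both ESC libraries and 37.5% to 51.4% in the control embryos; RNAi libraries 3, 4 and 6 have 46 reads or fewer.

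The Tdpoz genes lie in a longer array of predicted genes. Within 500 kb of the span from Tdpoz2 to Tdpoz5, 18 further genes shared at least 10% of their 25-base runs with a Tdpoz gene, among them Gm9125 and Gm10697 (Tdpoz9 and Tdpoz7 in RefSeq). All 18 were tested in embryos. With RNAi 14 were lower and none was higher, beside 12.0% lower and 6.13% higher among all genes tested. The median log2 difference was -2.07 and all 18 were below 0. The lowest were Gm5773 (log2 difference -3.15, SE 0.69, adjusted p = 0.00567) and Gm9141 (-3.06, SE 0.73, adjusted p = 0.0084). Their reads can be shared with the named Tdpoz genes, so they are no separate evidence. The count is less stable than the direction: it was 6 with edgeR and 9 with DESeq2, 8 without control 2, and 9 without control 1, control 4 or RNAi library 3.

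Of the other neighbours of the Tdpoz genes, 10 were tested in embryos. None was called lower and 1, the little expressed Gm42463, was called higher (log2 difference 1.87, adjusted p = 0.0244). The median was -0.43, with 7 below 0 and 3 above. Falls short of a call were those of Gm10696 (-1.92, adjusted p = 0.0632), Tchh (-1.91, 0.0964) and Them4 (-1.49, 0.0621). Gm10696 lies within the array and shares 7.24% of its 25-base runs with a Tdpoz gene, under the 10% cut. The summed level of the 18 Tdpoz-like genes was 1269 to 2175 in controls, 999, 1673 and 636 in RNAi libraries 1, 2 and 5, and 184, 354 and 91.1 in libraries 3, 4 and 6. In ESCs it was 0.952 and 0 in the controls (1 read) and 58.3 and 53.6 with overexpression (109 reads), a ratio of 119 (interval 21.0 to 4754). Of the 18, 8 passed the filter there, all through the overexpression libraries where they are high, so that 3 of them were called higher is a description only (11.7% of all genes tested were called higher).

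Around the Trim43 genes no other gene shared its 25-base runs with the family. Of 13 neighbours tested in embryos, 4 were lower with RNAi: Gm20537 (log2 difference -3.12, adjusted p = 0.00769), Syncrip (-3.05, adjusted p = 0.0124), the zinc finger gene Zfp949 (-2.26, adjusted p = 0.0176) and 9330159M07Rik, which overlaps Trim43c. Syncrip codes for an RNA-binding protein. The other 9 were not called, and 6 of the 13 were above 0. Among all genes tested, 12.0% were called lower. In ESCs none of 14 neighbours was called.

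**Figure D5:**
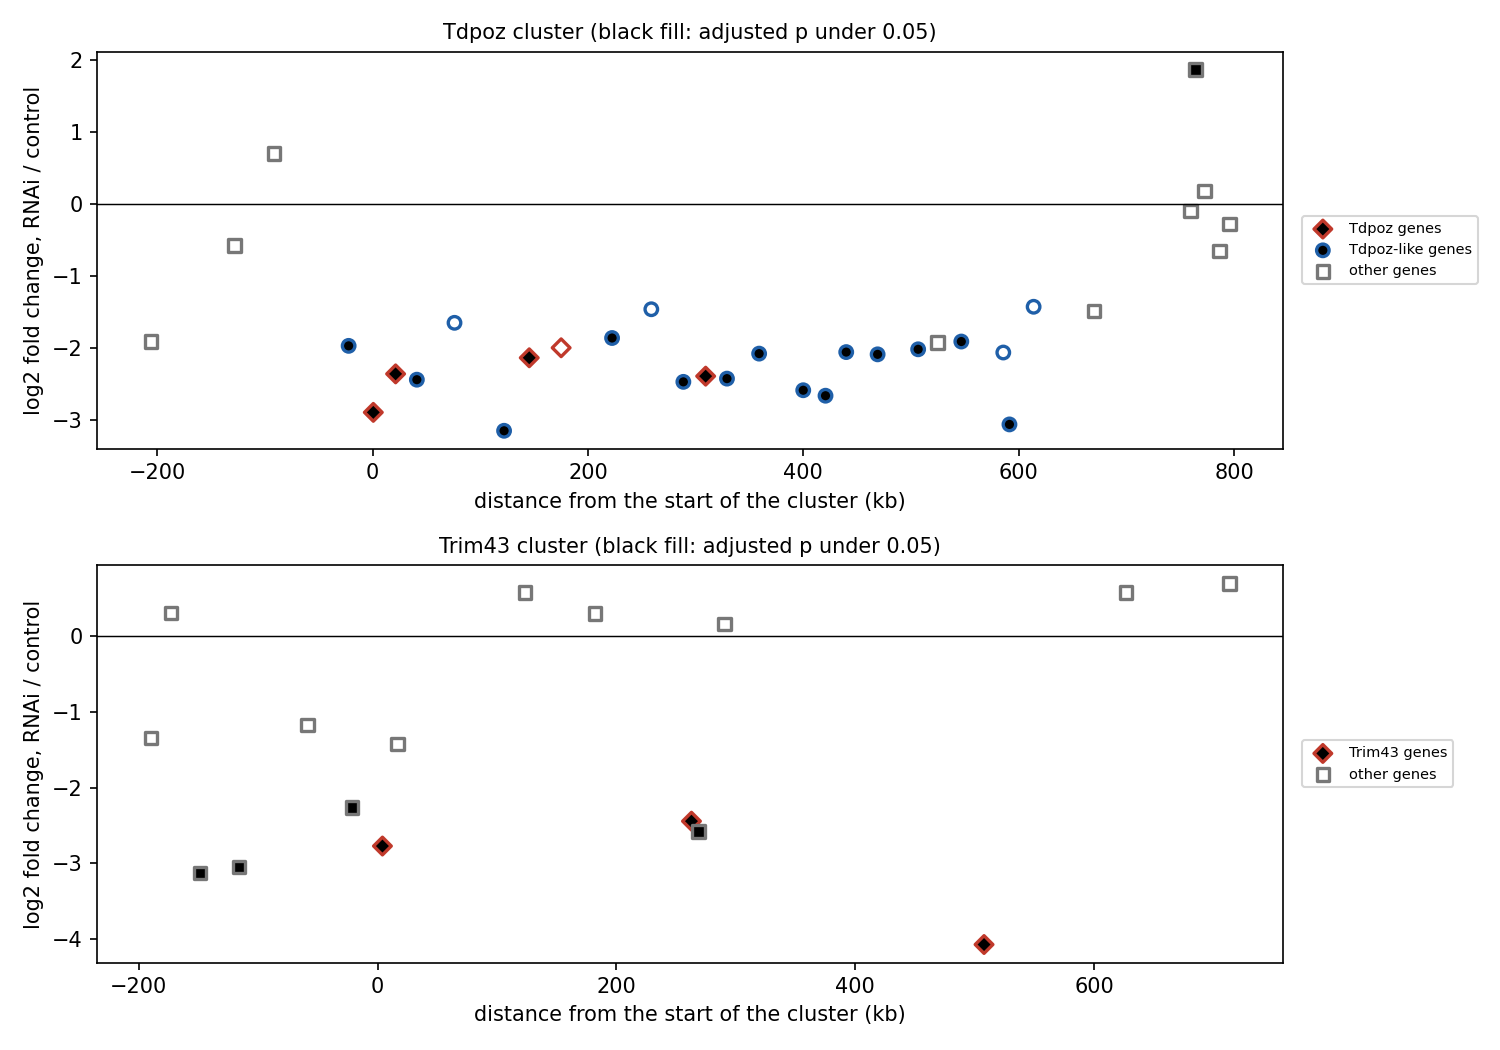
Log2 fold change with RNAi in embryos (y axis, on the log2(value + 1) scale) of each tested gene within 500 kb of the Tdpoz span (top) and the Trim43 span (bottom), against the distance of its middle from the start of the span (x axis, kb). Members are diamonds, Tdpoz-like genes circles and other genes squares, with black fill for an adjusted p under 0.05; the Tdpoz-like genes all lie below 0, while genes at both ends of the top panel lie on both sides of 0.

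RefSeq promoter windows (250 bases before to 50 after a start, GRCm38.p6, the assembly of mm10) were at hand for 4 of the 8 genes, Trim43a, Tdpoz1, Tdpoz4 and Tdpoz5. Tdpoz1 is shown because it alone of the 4 has matches to the motifs searched, at chr3:93676284-93676533 on the minus strand, the 250 bases before its RefSeq start. The GENCODE start lies 27 bases further upstream, within this stretch. Capitals mark the matches:
Tdpoz1: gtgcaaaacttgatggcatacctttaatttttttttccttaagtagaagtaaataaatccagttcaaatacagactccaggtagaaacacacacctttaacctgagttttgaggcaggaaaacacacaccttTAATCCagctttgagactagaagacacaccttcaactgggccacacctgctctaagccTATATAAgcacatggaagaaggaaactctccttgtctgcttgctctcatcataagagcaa
The motif TATATAA, the core promoter box bound by the TBP protein, starts 60 bases before the RefSeq start. TAATCC, the reverse complement of the Obox-type homeobox motif GGATTA, starts 118 bases before it. The 2 do not overlap. The same matches stand in the windows of Tdpoz9 (Gm9125) and of 1 window of Tdpoz8. Motifs were searched on both strands. Of all 32851 RefSeq windows, 3.04% hold TATATAA, 6.25% GGATTA, 3.67% the Zscan4 motif TGCACAC and 0.177% the Dux motif in the 250 bases before the start. For Tdpoz4 and Tdpoz5 the RefSeq start is the first coding base, so their windows lie before the coding sequence and need not hold the promoter. None of these motifs was in the windows of Trim43a, Tdpoz4 and Tdpoz5, which says only that the letters are not there.

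Of 56 other Trim genes tested in ESCs, 6 were higher and 12 lower with overexpression (median -0.02, as for all genes), beside 11.7% higher and 11.4% lower among all genes tested. Those with the smallest p were Trim8 (log2 difference 2.15, adjusted p = 0.0119) and Trim71 (1.36, adjusted p = 0.0157) higher, and Trim65 (-3.04, adjusted p = 0.0143) and Trim63 (-1.86, adjusted p = 0.0187) lower. Trim71 is a regulator of RNA and differentiation in stem cells. In embryos 4 of 35 were higher with RNAi and 3 lower, with a median of 0.00, where 6.13% of all genes were called higher and 12.0% lower. Trim61 (1.27, adjusted p = 0.00487) and Trim60 (1.19, adjusted p = 0.0102) were higher, and Trim28 (-1.60, adjusted p = 0.0104), the KAP1 co-repressor, and Trim33 (-1.60, adjusted p = 0.0122) lower.

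For the BTB-MATH side, 28 genes were listed: Spop and its relatives, and parts of the CUL3 ligase. In ESCs 5 of 25 tested were higher and 1 lower with overexpression (11.7% and 11.4% of all genes). Spop, the somatic relative of the Tdpoz genes, fell by 1.62 on the log2 scale (1230 ± 44.4 to 405 ± 87.3 normalised reads, adjusted p = 0.0194), while Klhl22, another CUL3 adaptor, and Ube2m, an enzyme that helps attach NEDD8 to cullins, were higher (1.45, adjusted p = 0.0183, and 2.28, adjusted p = 0.0186). In embryos 1 of 26 was higher with RNAi and 3 lower, a share of lower calls near that of all genes (12.0%), so the counts are no result about these genes as a group. Cul3, the scaffold of the ligase, fell by 2.59 (279.6 ± 102 to 51.0 ± 32.2, adjusted p = 0.00233) and Keap1, an adaptor, by 2.92 (adjusted p = 0.00724), and Spopl rose by 0.85 (adjusted p = 0.0357).

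Other genes of the 2-cell state were listed for comparison. Of 39 tested in ESCs, 29 were higher and 2, Ddit4l and Chit1, lower with overexpression (median 3.82, all genes -0.02), beside 11.7% and 11.4% of all genes. Of 43 tested in embryos, 26 were lower, none higher and 17 not called with RNAi (median -1.53, all genes -0.03), beside 12.0% lower among all genes, Obox6 (log2 difference -2.45, adjusted p = 0.00111) and AF067063 (-2.20, adjusted p = 0.00226) first. Among 12 listed activators of that state, 3 of 10 tested were higher in ESCs (Dppa2 by 3.50, adjusted p = 0.0112) and 1 lower. In embryos 3 of 11 were lower, Zscan5b (-2.86, adjusted p = 0.00354) and Dppa4 (-2.61, adjusted p = 0.00502) first. The 1 that was higher was Duxf3, with 0 to 2.52 normalised reads in controls and 4.81 to 103 with RNAi (log2 difference 3.46, adjusted p = 0.00502), against the direction of Trim43 and Tdpoz in the same libraries. Of 27 listed repressors, 6 of 26 tested were higher and none lower in ESCs, and 9 of 27 were lower and 2 higher in embryos.

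How the members varied together was described by Pearson correlations of log2(value + 1) over the 11 embryo libraries, which share depth and group differences, so no p is given. Pairs of Trim43 genes had r of 0.946 to 0.968, pairs of Tdpoz genes 0.589 to 0.956, and pairs across the families 0.675 to 0.966. With group means removed the ranges were 0.903 to 0.943, 0.405 to 0.936 and 0.55 to 0.941. The lowest correlations were those of Tdpoz3, with r of 0.589 to Tdpoz2, 0.675 to Trim43c and 0.684 to Trim43b.

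Of 9264 genes with a mean of at least 10, the 5 most like the Trim43 sum were Gm11841 (r = 0.988), Gm28645 (0.981), Cdk2ap1 (0.979), Mpc2 (0.978) and Zfp54 (0.978), and 395 genes had r above 0.9. For the Tdpoz sum they were Zfp949 (0.993), B4galt3 (0.978), Gpx4 (0.977), Ficd (0.976) and Wrap53 (0.974), and 203 genes had r above 0.9. Zfp949 kept r = 0.989 within groups. It lies on chromosome 9, its middle at -21.4 kb from the start of the Trim43 span, and not on the chromosome of the Tdpoz genes. Its values were 51.2, 84.8, 52.9, 65.6 and 44.0 in controls 1 to 5 and 0.868 to 39.4 with RNAi. In ESCs Zfp949 was at 230.5 and 180 in the controls and at 366 and 329 with overexpression (log2 difference 0.77, adjusted p = 0.0815), so it was present there before overexpression, unlike most members.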

How the data were processed

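RNA-Seq was read from 4 J1 ESC and 11 2-cell embryo libraries. The labels, however, give genomic DNA and a DNA library kit, and repeat the ESC culture for the embryos. Trimmomatic, HISAT2, featureCounts and mm10 are named in the submitters' processing notes. Their versions, the annotation, the strand setting and how multiply matching reads were treated are not stated there. The deposited unit is a normalised signal: gene-level reads over a size factor of each library, as seen from the values, of which 100% were whole multiples of a fixed step within 0.01 of 1 read. Those reads were recovered; the recovered reads gave 2552 genes higher in ESCs and 1314 lower in embryos with edgeR.

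The main test was limma 3.58.1 (R 4.3.3) with a mean-variance trend on log2(value + 1), for genes reaching 1 in 2 or more ESC or 5 or more embryo libraries, each table on its own, with Benjamini-Hochberg adjustment over all genes and a threshold of 0.05; differences on this scale understate the change of low genes. It was tested on simulated data with the same spread setting in both groups, where only genes with a mean of at least 10 were changed. That simulation does not cover groups of unequal spread or changes in genes with few reads. Alternatives were pseudocounts of 0.5 and 5, no filter and a filter at 10, TMM and quantile scaling, edgeR 4.0.16, DESeq2 1.42.0, voom with quality weights, leaving out each library, a replicate block, and in ESCs the spread of the overexpression libraries alone. Family sums and gene lists are given without a test. Ratios with 1 to 3 reads on one side have 95% exact binomial intervals, and 0 reads a floor of 3 over the group. The intervals cover counting error only, and the floor takes no account of counting error on the other side.

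Sequences came from GENCODE vM21 transcripts and RefSeq (GRCm38.p6). All 8 members are named; in each gene list, the 2 genes with the smallest p in each direction, and for likeness the 5 highest correlations. Duxf3 falls under that rule; Gm10697, 9330159M07Rik and Zfp949 in ESCs were named for their overlap or place after their values were seen. The members and lists were chosen with earlier results of these data known. Embryo controls are named by column, 1 to 5, while the labels number them differently.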

Additional observations from a re-analysis of the deposited data

Results flagged for a closer look

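The 8 genes and 4 family sums were looked at in both embryo groups, 24 sets of values in all. In 2 sets 1 library stood far from the others. The nominal rate of such flags is about 1 in 20 groups, and it was not measured here. Trim43c was at 123 normalised reads in RNAi library 1, where the next highest RNAi library had 46.9, a gap of 0.632 of the range of the group. Tdpoz2 was at 15.6 in RNAi library 2, against 5.41 in the next, a gap of 0.653 of the range.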

How the results depend on the processing

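In ESCs 3 genes were called; the count was 5 with a replicate block, 0 with the spread of the overexpression libraries alone, and 0 to 5 when 1 library was left out. The labels do not say whether the numbers 1 and 2 pair the ESC libraries. The correlation of their deviations was -0.007 for same numbers. With 2 libraries in a group the crossed value, 0.007, is only its mirror image, so this check cannot settle a pairing. In embryos the labels number the controls differently from the columns; with the column numbers as a replicate block (added after the data had been seen) 7 members and 13 Tdpoz-like neighbours were called and no member's call changed. Those numbers showed no sign of pairing the libraries. The correlation of deviations was -0.063 to 0.036 for the 5 same-numbered pairs and -0.2 to 0.119 for others. Of the controls, 0 were most like the RNAi library of their own number. With so few libraries this cannot exclude a pairing. The log2 ratio of the ESC sums was 6.81 for Trim43 and 4.49 for Tdpoz; averaged over members on the log2 scale it was 4.97 and 1.54. Leaving out 1 library gave 6.67 to 6.97 and 3.49 to 4.67, with no Tdpoz value without control 2, since control 1 has no read. In embryos DESeq2 called 4 genes in place of 7, and leaving out 1 library gave 5 to 8. The Tdpoz-like neighbours were 14; edgeR called 6, DESeq2 9, and leaving out 1 library gave 8 to 18 (these were added after the data had been seen). The embryo log2 ratios ranged from -2.76 to -2.09 (Trim43) and -2.01 to -1.31 (Tdpoz) when 1 library was left out. No member reversed its direction under these alternatives. Of the single gene results, 60 in ESCs and 157 in embryos stayed on their side of the threshold, 9 and 10 lost a call, and 7 and 1 gained one. Quantile scaling put the median of all embryo genes at 0.14, against -0.03 in the main test, both over 16417 genes. DESeq2 put it at 0.11 over 28353 genes. The embryo calls were 1007 higher and 1976 lower in the main test. They were 1396 and 1609 with quantile scaling, 1175 and 1912 with DESeq2, and 1103 and 1314 with edgeR, which tested 9453 genes. Causes were not tested.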
